A study of Homo sapiens with 6 samples.

Results

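The SLC25 family of mitochondrial carriers was examined in H1975 cells before and after exposure to Osi. Members were taken by gene symbol: each gene of the deposited table named SLC25A followed by a number, other than SLC25A20 and SLC25A37, together with UCP1, UCP2, UCP3, MTCH1 and MTCH2. This gave 51 of the 27216 genes in the table.

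H1975 is an established human lung cancer cell line with a mutated EGFR gene, and osimertinib (Osi) is an EGFR tyrosine kinase inhibitor. RNA sequencing had been done on 3 samples of parental cells (0 h) and 3 samples of adapted cells, which had been in 1000 nM Osi for 72 h. Both groups are the same single line, labelled as wild type for genotype and as grown in DMEM with serum. The study's methods name a different medium with serum. Apoptotic cells were washed off after Osi, so the adapted samples hold the cells that remained attached. The parental columns bear the name of the solvent DMSO while the labels say 0 h of Osi; the time these cells spent in DMSO, if any, is not stated, so time in culture and Osi cannot be told apart. The labels do not say whether replicates came from separate cultures, and p-values therefore measure only the spread between these samples, which may be technical. They also describe digestion of linear RNA with RNase R, which the study's methods for RNA sequencing do not mention. Values are on a log2(FPKM + 1) scale, where FPKM counts sequenced fragments per length of transcript and per size of library. The scale was inferred from the values, and the read depth is unknown.

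SLC25 carriers are encoded in the nucleus and, with few exceptions, span the inner mitochondrial membrane, where each exchanges or carries a particular set of metabolites between cytosol and matrix. ADP, ATP, phosphate, carboxylates, amino acids, nucleotides and cofactors all cross by members of this family, so that oxidative phosphorylation, the malate-aspartate shuttle and cytosolic citrate depend on it. Uncoupling proteins form one branch, and MTCH1, MTCH2 and SLC25A46 are members that sit in the outer membrane instead.

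The epithelial identity of the line was plain in all 6 samples, with EPCAM between 7.30 and 7.62 and CDH1 between 7.08 and 7.66 on the log2 scale. KRT19 was lower in adapted samples (9.87 to 9.88 in parental, 8.94 to 9.22 in adapted). So were KRT18 (9.73 to 9.75 and 8.94 to 9.37) and KRT8 (9.8 to 9.84 and 9.41 to 9.74). KRT7 was higher (9.38 to 9.4 and 10.23 to 10.6). Of the lung lineage genes, NKX2-1 was higher in adapted samples (4.99 to 5.01 in parental, 5.19 to 5.67 in adapted). NAPSA was lower (6.69 to 6.70 and 5.49 to 6.22), and the surfactant genes SFTPB, SFTPC and SFTPA1 reached at most 0.29. The 7 markers of blood, endothelial and fibroblast cells summed to 4.12 to 4.76 FPKM in parental and 7.10 to 9.05 FPKM in adapted cells, against 3491 to 3788 FPKM for the 6 epithelial markers in adapted cells. COL1A1 made up most of that sum, at 1.99 to 2.04 on the log2 scale in parental and 2.97 to 3.28 in adapted cells, while PECAM1 was at 1.0 to 1.4 in parental and 0.07 to 0.11 in adapted cells. VWF reached at most 0.34, PTPRC, COL1A2 and DCN at most 0.11, and CD3E was listed at 0 in all samples. The share of summed FPKM from 13 mitochondrially encoded genes was 8.07% to 8.66% in parental and 9.73% to 12.2% in adapted cells. Adapted replicate 1 stood slightly apart: across the 27216 genes its Pearson correlation with each of the other adapted samples was 0.991, where those correlated with each other at 0.996. The part of the marker differences in the results on the carriers was not tested. A rescaling without the mitochondrially encoded genes called 22 of 39 carriers, beside 7270 of all 12656 tested genes. Leaving out adapted replicate 1 called 24 of 39 carriers, beside 8370 of all 12656 tested genes. In bulk samples, fewer cells of a type and less RNA per cell cannot be told apart.

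The question was how transcript levels of these carriers differ between adapted and parental cells. Of the 51 members, 39 had a mean of at least 1 on the log2 scale and were tested with limma, unpaired, with Benjamini-Hochberg adjustment over all 12656 genes tested. At an adjusted p under 0.05, 23 of the 39 were called (59%), beside 56.9% of all tested genes, so the share of carriers called was near the background. Of these, 16 were higher in adapted cells (41.0%, beside 30.7% of all tested genes) and 7 were lower (17.9%, beside 26.2%). The 3 values of each group did not overlap in 25 of the 39 (64.1%, beside 66.3% of all tested genes). The median log2 fold change was 0.09 in the carriers and 0.03 in all tested genes, and the median absolute change was 0.31 in both. A change of at least 1 on the log2 scale was seen in 3 carriers (7.69%, beside 10.5%): SLC25A5 and SLC25A3 were higher and SLC25A25 was lower, and of these SLC25A25 alone met it once the constants described below were subtracted. Single carriers ranged from -1.51 to 1.44.

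**Figure D1:**
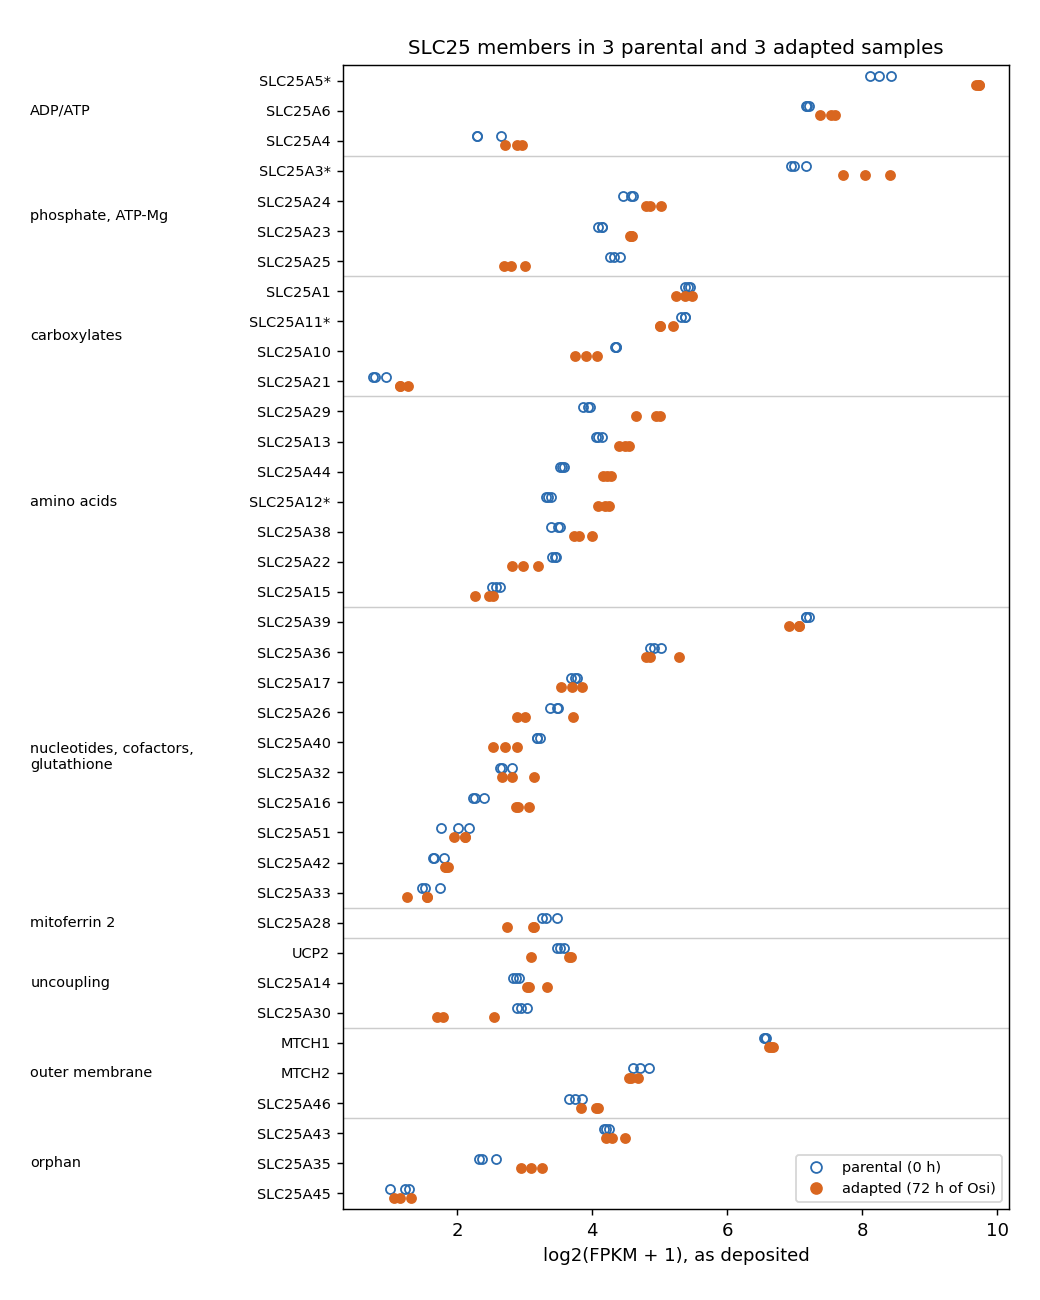
Log2(FPKM + 1) as deposited (x axis) of 38 of the 39 tested SLC25 members (y axis, grouped by substrate and ordered by mean), with parental samples as open and adapted samples as filled circles, 3 each; an asterisk marks the 4 members whose values in 1 group carry a constant. SLC25A5 was the highest member in both groups, and SLC25A25 showed the widest gap below its parental values, with adapted samples between 2.69 and 3.0 and parental samples between 4.27 and 4.41.

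The values of 4 members carry a mark of the table's own history. For most genes, 2 to the power of the value, minus 1, is a number of 6 decimals in every sample, but in 147 genes of the table (0.54%) the 3 values of 1 group are not. Subtracting 0.66 from the adapted values brought SLC25A3, SLC25A5 and SLC25A12 back to such numbers, and subtracting 0.2 from the parental values did so for SLC25A11. Among the carriers these are 4 of 51 (7.84%), and among tested carriers 4 of 39 (10.3%, beside 1.11% of all tested genes). The results below use the values as deposited and give the value with the constant subtracted beside each of the 4; how the constants arose was not tested, and subtraction is not taken to restore an earlier table. With all constants subtracted, 19 of 39 carriers were called (48.7%, beside 56.3% of all tested genes). Of these 19, 13 were higher and 6 lower, beside 53.9% higher among all genes called with the constants subtracted. As deposited, 16 of the 23 called carriers were higher, beside 54.0% of all called genes. Higher calls thus went from 16 to 13 and lower calls from 7 to 6.

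ADP/ATP carriers exchange matrix ATP for cytosolic ADP and are among the most abundant proteins of the inner membrane. All 3 tested members of this group rose in adapted cells (100%, beside 30.7% of all tested genes called higher). SLC25A31, the testis form, was listed at 0 in all 6 samples. SLC25A5 (ANT2), the form typical of proliferating cells, lies at chromosome X (GRCh38, 119468400 to 119471319, plus strand). Its values were 8.43, 8.25 and 8.11 in parental and 9.68, 9.72 and 9.72 in adapted samples. The groups did not overlap, and the adapted samples lay close together. SLC25A5 rose by 1.44 ± 0.09 (SE, n = 3 per group) on the log2 scale (limma, adjusted p = 2.62e-05), from 308.0 ± 34.3 to 835.0 ± 12.1 FPKM (SD). With 0.66 subtracted the adapted values were 9.02, 9.06 and 9.06, still above all parental values, and the difference was 0.78 ± 0.09 (limma, adjusted p = 0.000355). Thus the call held either way, while its size fell from 1.44 to 0.78.

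SLC25A6 (ANT3), the widely expressed form, lies in the pseudoautosomal region of chromosome X (GRCh38, 1386152 to 1392724, minus strand). It measured 7.17, 7.18 and 7.21 in parental and 7.60, 7.37 and 7.53 in adapted samples, which did not overlap. It rose by 0.31 ± 0.07 (limma, adjusted p = 0.00886). SLC25A4 (ANT1), the form of heart and skeletal muscle, lies on chromosome 4 (GRCh38, 185143241 to 185150382, plus strand) and was far lower, with values of 2.65, 2.30 and 2.29 in parental and 2.88, 2.96 and 2.71 in adapted samples. Its lowest adapted value stood only just above its highest parental value. SLC25A4 rose by 0.44 ± 0.12 (limma, adjusted p = 0.018), and this call was lost without parental replicate 2 (adjusted p = 0.0692), without parental replicate 3 (0.0686) or without adapted replicate 2 (0.0617).

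FPKM is scaled to transcript length, so the 3 isoforms can be set beside each other if the inferred unit is right. Their sum was 492, 451 and 427 FPKM in parental and 1021, 1012 and 1033 FPKM in adapted samples, a ratio of 2.24 between the group means. SLC25A5 made up 69.9%, 67.2% and 64.6% of the sum in parental samples and 80.4%, 83.1% and 81.7% in adapted samples. The groups did not overlap and differed by 14.5 percentage points (67.2% ± 2.62 against 81.7% ± 1.31, SD, n = 3). The share of SLC25A6 was correspondingly lower, at 31.8% ± 2.70 in parental and 17.7% ± 1.34 in adapted samples, and that of SLC25A4 was at most 1.07% in any sample. With the constant subtracted, SLC25A5 made up 72.2%, 75.6% and 73.9% in adapted samples, the difference was 6.66 points, and the sums had a ratio of 1.57. Of the 50-base stretches in the transcripts of SLC25A5, 4.6% also occur in its processed pseudogenes, and of those of SLC25A6, 0.9%. Some reads could thus be split between copies. Exact matches alone were counted, so the share of reads affected could be larger and was not tested. Of the exonic bases of SLC25A5, 15.1% lie opposite SLC25A5-AS1, and whether counting used strand is not stated.

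**Figure D2:**
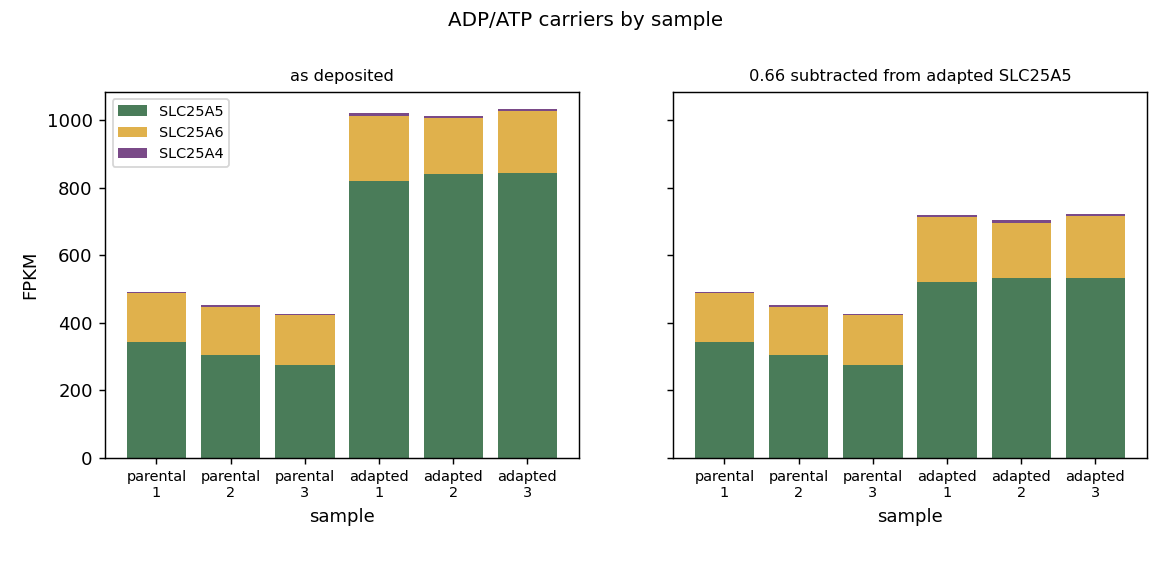
FPKM (y axis) of SLC25A5, SLC25A6 and SLC25A4 stacked for each of the 6 samples (x axis), as deposited on the left and with 0.66 subtracted from the adapted log2 values of SLC25A5 on the right. As deposited, the stacks reach 427 to 492 FPKM in parental and 1012 to 1033 FPKM in adapted samples, and with the constant subtracted the adapted stacks reach 703 to 722 FPKM.

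The 250 bases before the RefSeq starts of the 3 expressed ADP/ATP carrier genes are shown because these genes rose together while their levels differ widely. Sequences are from RefSeq (GRCh38.p14), 5′ to 3′ on the strand of the gene, and capitals mark matches, on either strand, to one of the following: the TATA box, spelled TATAAA, the CAAT box, spelled CCAAT, and the core site of ETS factors, spelled CCGGAAG.
SLC25A5, chrX:119468194-119468443, plus strand: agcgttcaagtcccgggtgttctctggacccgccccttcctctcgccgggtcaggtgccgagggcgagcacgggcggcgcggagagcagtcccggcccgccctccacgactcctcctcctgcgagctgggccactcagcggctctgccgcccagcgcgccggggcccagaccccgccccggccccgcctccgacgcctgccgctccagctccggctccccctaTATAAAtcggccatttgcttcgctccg
SLC25A6, chrX:1392114-1392363, minus strand: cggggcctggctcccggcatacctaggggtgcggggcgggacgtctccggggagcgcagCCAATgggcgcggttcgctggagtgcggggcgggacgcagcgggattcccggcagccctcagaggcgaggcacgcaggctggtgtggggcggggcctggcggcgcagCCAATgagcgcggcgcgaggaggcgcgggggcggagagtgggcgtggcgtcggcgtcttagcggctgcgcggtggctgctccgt
SLC25A4, chr4:185143016-185143265, plus strand: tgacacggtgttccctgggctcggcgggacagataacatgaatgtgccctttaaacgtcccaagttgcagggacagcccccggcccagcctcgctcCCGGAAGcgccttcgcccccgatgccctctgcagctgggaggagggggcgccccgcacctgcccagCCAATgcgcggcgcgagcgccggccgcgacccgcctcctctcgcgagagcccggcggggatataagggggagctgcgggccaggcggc
SLC25A5, the most highly expressed of them, holds the letters TATAAA 27 bases before its start and no CCAAT. SLC25A6 holds CCAAT 191 and 84 bases before its start. SLC25A4 holds CCAAT 88 bases and CCGGAAG 154 bases before its start. Windows of 250 bases before and 50 after the start were searched for 44 of the 51 members (57 promoters): TATAAA was found in 7.02% of them and in 11.5% of all 35087 promoters, and CCAAT in 43.9% and 34.6%. Among promoters of tested genes these shares were 6.07% for TATAAA and 34.6% for CCAAT, though the 57 member promoters include those of members that were not tested. A match is a description of letters and not of a bound factor.

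Phosphate enters the matrix through SLC25A3, and the ATP-Mg/phosphate carriers SLC25A23, SLC25A24, SLC25A25 and SLC25A41 adjust the matrix adenine nucleotide pool, all but SLC25A41 in response to cytosolic calcium. Of the 4 tested members, 3 rose and SLC25A25 fell (100% called, beside 56.9% of all tested genes), and SLC25A41 was at most 0.08. SLC25A25 (APC3, or SCaMC-2) lies on chromosome 9 (GRCh38, 128068201 to 128109245, plus strand). Its values were 4.41, 4.32 and 4.27 in parental and 3.0, 2.79 and 2.69 in adapted samples. Every adapted sample lay more than 1 log2 unit below every parental sample. SLC25A25 fell by 1.51 on the log2 scale (SE 0.09, limma, adjusted p = 2.24e-05), the largest decrease among the carriers, from 19.2 ± 1.02 to 6.13 ± 0.804 FPKM (SD, n = 3). Of its exonic bases, 16.2% lie opposite exons of genes on the other strand, SLC25A25-AS1 among them, with the same limit on strand.

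SLC25A23 and SLC25A24 moved the opposite way. SLC25A23 (APC2) measured 4.09, 4.15 and 4.15 in parental and 4.59, 4.57 and 4.56 in adapted samples, without overlap, and rose by 0.44 ± 0.05 (limma, adjusted p = 0.000429). SLC25A24 (APC1) measured 4.61, 4.58 and 4.46 in parental and 4.79, 5.02 and 4.85 in adapted samples, without overlap, and rose by 0.34 ± 0.08 (limma, adjusted p = 0.00922). Of the exonic bases of SLC25A24, 13.7% lie opposite exons of other genes, with the same limit on strand. Among parental cells the 3 genes were thus at similar levels, and among adapted cells SLC25A25 stood below SLC25A23 and SLC25A24. The linear ratio of SLC25A23 to SLC25A25 went from 0.861 to 3.74 and that of SLC25A24 to SLC25A25 from 1.17 to 4.69, and neither ratio overlapped between groups in any sample.

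SLC25A3, which supplies the ATP synthase with phosphate, lies on chromosome 12 (GRCh38, 98593591 to 98606379, plus strand). It measured 7.17, 6.94 and 6.98 in parental and 8.41, 8.04 and 7.72 in adapted samples. The groups did not overlap as deposited, and the spread among adapted samples (SD 0.34) was wider than among parental samples (SD 0.12). SLC25A3 rose by 1.03 ± 0.17 (limma, adjusted p = 0.00157). With 0.66 subtracted the adapted values were 7.75, 7.38 and 7.06, which overlapped the parental values, and the difference of 0.37 ± 0.16 was not called (limma, adjusted p = 0.0936). When adapted replicate 1 was also left out, in a fit that was not planned, the difference was 0.19 and not called (limma, adjusted p = 0.156). That fit called 23 of 39 carriers, beside 8310 of all 12655 tested genes. The rise of SLC25A3 past the threshold therefore rested on the constant.

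The promoters of the carrier that fell most and of the phosphate carrier are shown in the same form, with capitals for TGACGTCA (CRE) and for CCAAT or its reverse complement. SLC25A25 has 3 RefSeq starts, and the 1 shown is the only one of them with TGACGTCA. CCGGAAG lies 56 bases before another of its starts, and CCAAT lies 110 and 56 bases before the remaining start, on the other strand. Which of these starts the cells use was not tested.
SLC25A25, chr9:128098257-128098506, plus strand: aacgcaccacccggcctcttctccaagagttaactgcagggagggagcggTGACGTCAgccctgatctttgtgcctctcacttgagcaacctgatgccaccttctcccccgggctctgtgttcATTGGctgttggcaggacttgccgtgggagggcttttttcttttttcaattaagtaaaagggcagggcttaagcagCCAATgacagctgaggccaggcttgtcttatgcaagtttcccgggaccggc
SLC25A3, chr12:98593436-98593685, plus strand: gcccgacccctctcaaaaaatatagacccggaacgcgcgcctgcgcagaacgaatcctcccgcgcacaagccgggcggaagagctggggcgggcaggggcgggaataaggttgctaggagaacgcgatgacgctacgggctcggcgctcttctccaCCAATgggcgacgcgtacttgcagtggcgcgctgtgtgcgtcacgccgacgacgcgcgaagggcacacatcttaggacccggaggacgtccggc
TGACGTCA lies 200 bases before this start of SLC25A25, and CCAAT lies 127 and 51 bases before it, the farther of them on the other strand. SLC25A3 holds CCAAT 94 bases before its start. TGACGTCA was found in 3 of the 57 member promoters (5.26%) and in 1.85% of all promoters. CCGGAAG was found in 11 (19.3%) and in 10.3% of all, and the E-box CACGTG in 11 (19.3%) and in 7.25% of all. The 57 include several starts of 1 gene and members that were not tested, so the next shares are not a matched comparison. Among promoters of tested genes, TGACGTCA was in 2.76%, CCGGAAG in 17.7% and CACGTG in 9.45%. The YY1 site AAGATGGC was found in 3.51% of member promoters, 2.89% of all promoters and 4.98% of those of tested genes. CGCATGCG, the core of the NRF1 site, was found in 1.75%, 2.02% and 3.46% in the same order, and the ERR site TCAAGGTCA in 0, 0.353% and 0.154%.

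**Figure D3:**
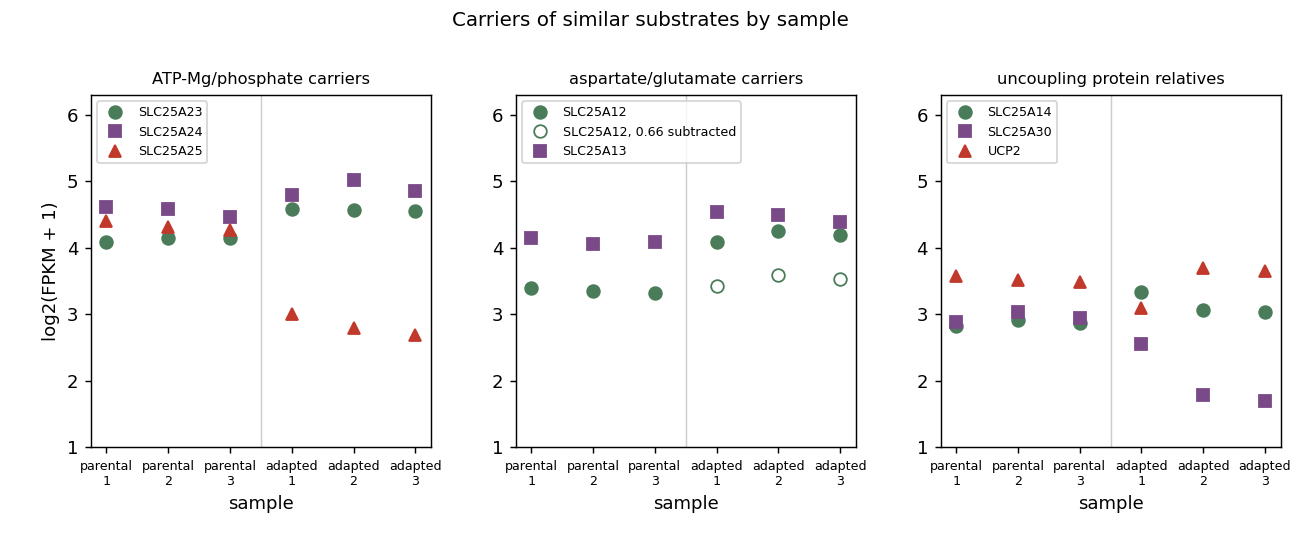
Log2(FPKM + 1) (y axis) in each of the 6 samples (x axis) for carriers of similar substrates, with open symbols for values from which 0.66 was subtracted. SLC25A25 fell while SLC25A23 and SLC25A24 rose, SLC25A12 moved close to its parental level once the constant was subtracted, and SLC25A30 fell while SLC25A14 rose.

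Di- and tricarboxylate carriers link the matrix citric acid cycle with cytosolic metabolism. Of 4 tested members, SLC25A21 rose, SLC25A10 and SLC25A11 fell, and SLC25A1 was not called (75.0% called, beside 56.9% of all tested genes). SLC25A1, the citrate carrier that exports citrate for lipid synthesis and the highest of the group by mean, measured 5.37, 5.44 and 5.42 in parental and 5.47, 5.38 and 5.24 in adapted samples. The groups overlapped and the difference was -0.04 ± 0.07 (limma, adjusted p = 0.64). SLC25A10, the dicarboxylate carrier that exchanges malate or succinate for phosphate, measured 4.34, 4.35 and 4.35 in parental and 4.07, 3.90 and 3.75 in adapted samples, without overlap. It fell by 0.44 (SE 0.09, limma, adjusted p = 0.00396), and 56.9% of the 50-base stretches of its transcripts are shared with the overlapping gene AC139530.2, so its reads are uncertain.

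SLC25A11, the oxoglutarate/malate carrier of the malate-aspartate shuttle, measured 5.32, 5.37 and 5.37 in parental and 5.20, 5.01 and 5.01 in adapted samples. As deposited the groups did not overlap, and SLC25A11 fell by 0.28 (SE 0.07, limma, adjusted p = 0.0117). With 0.2 subtracted from the parental values these were 5.12, 5.17 and 5.17, the groups overlapped, and the difference of -0.08 was not called (limma, adjusted p = 0.365). In the unplanned fit that also left out adapted replicate 1, SLC25A11 was called again, at -0.14 (limma, adjusted p = 0.0287). That fit called 8310 of all 12655 tested genes. SLC25A21, the oxoadipate carrier, was low, between 0.76 and 0.94 in parental and between 1.15 and 1.27 in adapted samples, and its rise of 0.36 (limma, adjusted p = 0.0147) was lost without parental replicate 1 (adjusted p = 0.0596) or parental replicate 2 (0.0582). Of its exonic bases, 28.8% lie opposite exons of other genes.

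Amino acid carriers bring glutamate, glycine, basic and branched-chain amino acids to matrix enzymes. Of 7 tested members, 5 rose and 1 fell (85.7% called, beside 56.9% of all tested genes). SLC25A2 and SLC25A18 were too low to be tested. SLC25A29, a carrier of basic amino acids and the highest of the group by mean over all 6 samples (SLC25A13 was higher in parental cells), lies on chromosome 14 (GRCh38, 100291111 to 100306547, minus strand). It measured 3.87, 3.94 and 3.96 in parental and 4.65, 4.95 and 5.0 in adapted samples. All adapted samples exceeded all parental samples, and SLC25A29 rose by 0.94 ± 0.10 (limma, adjusted p = 0.000221), from 14.2 ± 0.499 to 28.4 ± 3.77 FPKM. Among carriers with no constant this was the largest rise. SLC25A44, which carries branched-chain amino acids, measured 3.58, 3.55 and 3.52 in parental and 4.16, 4.22 and 4.28 in adapted samples, without overlap, and rose by 0.67 ± 0.06 (limma, adjusted p = 0.000118). SLC25A38, which brings glycine to the matrix for heme synthesis, rose by 0.38 (limma, adjusted p = 0.00732).

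SLC25A12 and SLC25A13 (aralar and citrin) are the aspartate/glutamate carriers, calcium-regulated members of the malate-aspartate shuttle. SLC25A13 rose by 0.37 ± 0.06 (limma, adjusted p = 0.00226), from 4.15, 4.06 and 4.09 in parental to 4.54, 4.49 and 4.39 in adapted samples. SLC25A12 measured 3.39, 3.35 and 3.32 in parental and 4.09, 4.25 and 4.19 in adapted samples. As deposited it rose by 0.82 ± 0.07 (limma, adjusted p = 7.22e-05). With 0.66 subtracted the adapted values were 3.43, 3.59 and 3.53, still above all parental values, but the difference of 0.16 ± 0.07 was not called (limma, adjusted p = 0.0783). In the unplanned fit that also left out adapted replicate 1, SLC25A12 was called again, at 0.21 (limma, adjusted p = 0.0156). That fit called 8310 of all 12655 tested genes. The ratio of SLC25A12 to SLC25A13 turned with the constant: it was 0.570 in parental cells, 0.805 in adapted cells as deposited and 0.492 with the constant subtracted, without overlap with the parental samples in either case.

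The member of this group that fell was SLC25A22, a glutamate carrier, which measured 3.45, 3.47 and 3.41 in parental and 3.19, 2.81 and 2.98 in adapted samples. No adapted value reached the parental range, and it fell by 0.45 (SE 0.10, limma, adjusted p = 0.00701). Of its exonic bases, 10.8% lie opposite exons of PANO1, with the same limit on strand. SLC25A15, the ornithine carrier of the urea cycle, differed by -0.15 and was not called (limma, adjusted p = 0.174).

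Among 11 tested carriers of nucleotides, cofactors and glutathione, 1 rose, 1 fell and 9 were not called (18.2% called, beside 56.9% of all tested genes). SLC25A39 and SLC25A40 bring glutathione into the matrix. SLC25A39, by far the higher of the pair, measured 7.16, 7.21 and 7.16 in parental and 7.06, 6.91 and 7.06 in adapted samples. All adapted values were lower, yet the difference of -0.17 ± 0.07 was not called (limma, adjusted p = 0.0584), and it was called without adapted replicate 1 (-0.19, adjusted p = 0.0228). SLC25A40 measured 3.22, 3.18 and 3.18 in parental and 2.88, 2.71 and 2.53 in adapted samples, without overlap, and fell by 0.49 (SE 0.10, limma, adjusted p = 0.00391). The linear ratio of SLC25A39 to SLC25A40 was 17.6 in parental and 23.1 in adapted cells.

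SLC25A16, which has been linked to the transport of coenzyme A, was the member of this group that rose. It measured 2.26, 2.40 and 2.24 in parental and 2.90, 3.06 and 2.87 in adapted samples, without overlap, and rose by 0.64 ± 0.08 (limma, adjusted p = 0.000599). SLC25A42, the other coenzyme A carrier, differed by 0.14 without overlap and was not called (limma, adjusted p = 0.181). SLC25A26, which imports S-adenosylmethionine for methylation in the matrix, depended on 1 sample. It measured 3.37, 3.48 and 3.50 in parental samples, and 3.72 in adapted replicate 1 against 3.0 and 2.89 in the other adapted samples. With all samples the difference of -0.25 was not called (limma, adjusted p = 0.326), and without adapted replicate 1 it was called at -0.51 (adjusted p = 0.000617). Of the exonic bases of SLC25A26, 15.5% lie opposite exons of LRIG1, with the same limit on strand. The pyrimidine nucleotide carriers SLC25A33 and SLC25A36, the peroxisomal carrier SLC25A17, the folate and FAD carrier SLC25A32 and the NAD+ carrier SLC25A51 differed by -0.13 to 0.16 and were not called. SLC25A52, the close copy of SLC25A51, was listed at 0 in all samples. Of the 50-base stretches of SLC25A51, 27.4% also occur in SLC25A52 or related copies, so its reads are uncertain, as are those of SLC25A32, of which 87.9% are shared, and SLC25A33, of which 20.7% are.

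SLC25A28 (mitoferrin 2) imports iron into mitochondria of cells outside the erythroid lineage. It measured 3.26, 3.32 and 3.48 in parental and 3.12, 2.74 and 3.14 in adapted samples. All adapted values lay below all parental ones, and it fell by 0.36 (SE 0.12, limma, adjusted p = 0.0415). The call was lost without any 1 of the parental replicates (adjusted p = 0.0636, 0.0894 and 0.138 without replicates 1, 2 and 3) and without adapted replicate 2, where the difference was -0.22 (0.0757). It was also lost with no filter (0.0779) and with an equal sum without mitochondrially encoded genes (0.0641).

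Uncoupling proteins and their relatives went apart. SLC25A30 (KMCP1) measured 2.89, 3.04 and 2.95 in parental and 2.55, 1.79 and 1.70 in adapted samples, and adapted replicate 1 was the nearest to the parental samples. The groups did not overlap, and SLC25A30 fell by 0.95 (SE 0.21, limma, adjusted p = 0.00699), or by 1.21 without adapted replicate 1 (adjusted p = 1.12e-05). SLC25A14 (BMCP1), its closest relative, measured 2.83, 2.91 and 2.87 in parental and 3.33, 3.06 and 3.03 in adapted samples. SLC25A14 rose by 0.27 (limma, adjusted p = 0.0415), a call that was lost without each of the parental replicates in turn (adjusted p = 0.124, 0.0862 and 0.105) and without adapted replicate 2 (0.05). It was also lost with the replicate block (0.0677), no filter (0.0703), quantile normalization (0.0664) or median centring (0.0559). The linear ratio of SLC25A14 to SLC25A30 went from 0.930 to 2.61, without overlap in any sample.

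UCP2, which carries aspartate, malate and related metabolites, and the highest of this group by mean, measured 3.58, 3.52 and 3.48 in parental and 3.10, 3.69 and 3.65 in adapted samples. The adapted samples lay on both sides of the parental ones, and the difference of -0.05 was not called (limma, adjusted p = 0.815). UCP1, the uncoupling protein of brown fat, was at most 0.06, and SLC25A27 (UCP4) was at most 0.56. UCP3, the form of skeletal muscle, was below the filter, with values of 0.26, 0.33 and 0.14 in parental and 0.57, 0.94 and 0.85 in adapted samples. These did not overlap, and a fit without the filter called UCP3 higher by 0.54 (limma, adjusted p = 0.0104), as it did SLC25A53 by 0.20 (adjusted p = 0.0165) and SLC25A18 by 0.19 (adjusted p = 0.0368). That fit called 8759 of 23902 genes. The levels are near the floor, with adapted means of 0.738 FPKM for UCP3, 0.174 for SLC25A53 and 0.257 for SLC25A18. UCP2 and UCP3 are neighbours on chromosome 11, with 16974 bases between them.

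Of the outer membrane members, MTCH1 was the highest, with values of 6.54, 6.56 and 6.57 in parental and 6.65, 6.68 and 6.62 in adapted samples. Adapted values were all higher, but the difference of 0.09 ± 0.05 was not called (limma, adjusted p = 0.17). MTCH2, an insertase for proteins of the outer membrane, differed by -0.12 (limma, adjusted p = 0.22). SLC25A46, which acts in mitochondrial dynamics, was called higher by 0.24 at an adjusted p of 0.04997 (limma), although its groups overlapped, and the call was lost without any 1 of the samples other than adapted replicate 3 (adjusted p = 0.0594 to 0.166). It held in 5 of 17 alternatives in all.

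The remaining carriers have no settled substrate or were barely detected. SLC25A35 measured 2.57, 2.37 and 2.33 in parental and 2.95, 3.09 and 3.25 in adapted samples, without overlap, and rose by 0.67 ± 0.10 (limma, adjusted p = 0.00131). Of its exonic bases, 33.2% lie opposite exons of RANGRF, with the same limit. SLC25A43, the highest of this group by mean and a neighbour of SLC25A5 on chromosome X with 13922 bases between them, measured 4.25, 4.20 and 4.18 in parental and 4.21, 4.29 and 4.49 in adapted samples. The groups overlapped, and SLC25A43 was not called (0.12, limma, adjusted p = 0.237), unlike its neighbour. SLC25A45 differed by 0.00. SLC25A34, SLC25A47, SLC25A48 and SLC25A53 were at most 0.29 in any sample, and SLC25A47 was listed at 0 in all 6.

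**Figure D4:**
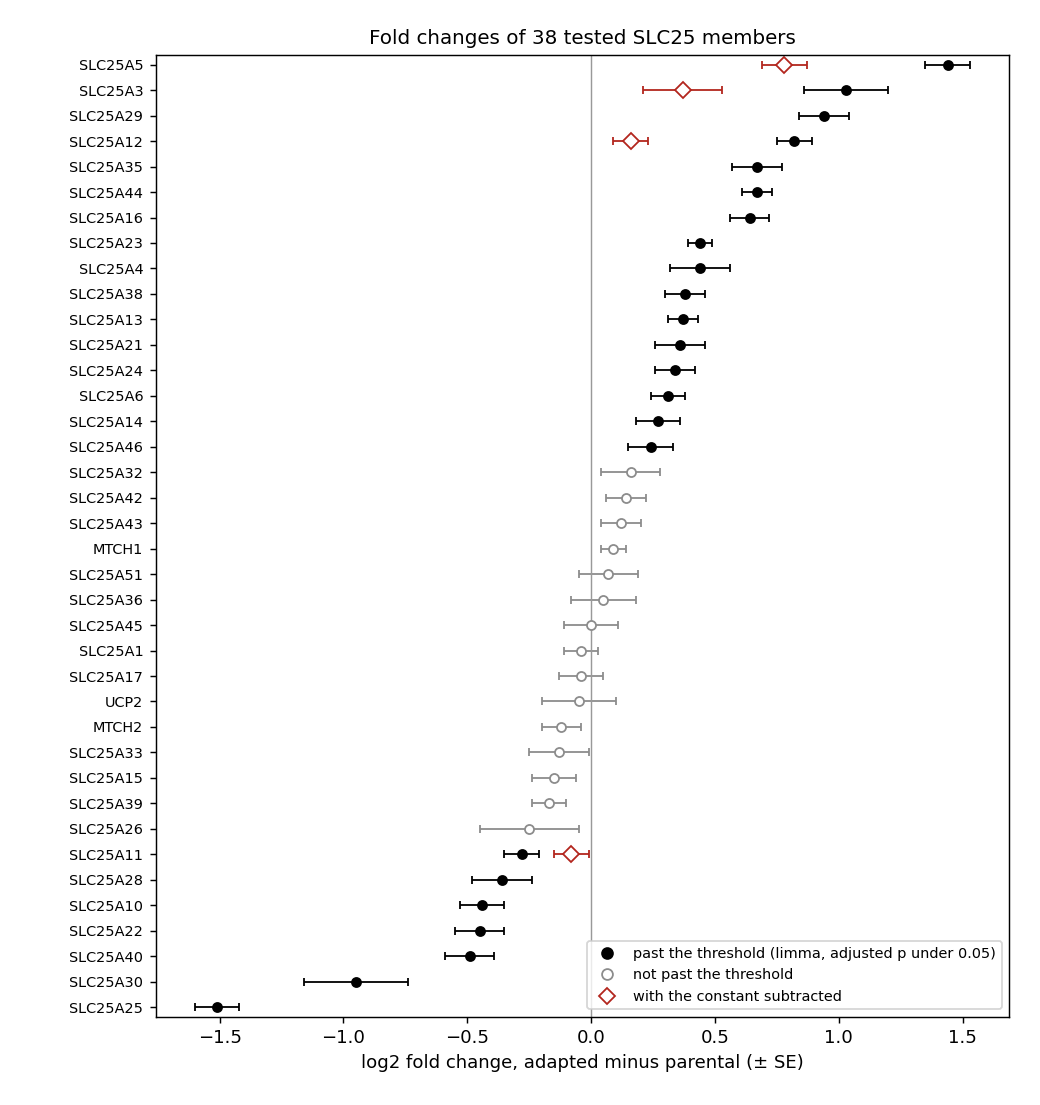
Log2 fold change, adapted minus parental (x axis), with its SE for 38 of the 39 tested SLC25 members (y axis, ordered by size); filled circles passed the threshold, open circles did not, and diamonds give the 4 members with their constant subtracted. The range was -1.51 (SLC25A25) to 1.44 (SLC25A5), and of the 4 diamonds that of SLC25A5 lies farthest from 0, at 0.78.

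Summed over all 51 members, the carriers came to 1235 ± 42.5 FPKM in parental and 1954 ± 71.9 FPKM in adapted cells (SD, n = 3), a ratio of 1.58. SLC25A5 alone made up 24.9% ± 1.91 of the parental and 42.8% ± 2.15 of the adapted sum, without overlap, or 25.0% ± 1.91 and 34.3% ± 1.65 with the constants subtracted. Without SLC25A3 and SLC25A5 the sum was 794, 803 and 796 FPKM in parental and 872, 836 and 837 FPKM in adapted samples, a ratio of 1.06. Most of the difference in the summed level as deposited thus lay in these 2 carriers, whose adapted values both carry the constant of 0.66. With the constants subtracted the sum over all members was 1230 ± 42.6 FPKM in parental and 1541 ± 52.9 FPKM in adapted cells, a ratio of 1.25.

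Carriers reach the inner membrane through the TOM complex, the small TIM chaperones and the TIM22 translocase, and they work beside the pyruvate carrier, the porins and the shuttle enzymes. Of 42 tested genes in 4 lists of such companions, 18 were called (42.9%), 9 higher and 9 lower, beside 56.9% of all tested genes. Their median log2 fold change was -0.07, and without adapted replicate 1 the count was 27 of 42, beside 8370 of all 12656 tested genes. Of the 42, 6 carry a constant: TIMM9, TIMM8B, MPC1, VDAC1 and GOT2 (0.66 in adapted samples) and TOMM22 (0.2 in parental samples).

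In the import list, 3 of 13 tested genes rose and 3 fell (46.2% called, beside 56.9% of all tested genes). Of the small chaperones, TIMM10, TIMM8A and TIMM13 were not called, TIMM8B rose by 0.95 and TIMM9 by 0.89 as deposited, or 0.29 and 0.23 with the constant subtracted, and TIMM10B fell by 1.03 (limma, adjusted p = 3.82e-05). TIMM10B measured 3.37, 3.39 and 3.30 in parental and 2.40, 2.24 and 2.33 in adapted samples. TIMM22, the channel subunit of the translocase, rose by 0.43 (limma, adjusted p = 0.00265), and TOMM70, the receptor for carrier precursors, fell by 0.36 (limma, adjusted p = 0.00143). TOMM22 fell by 0.21 as deposited, a call that was lost with 0.2 subtracted (-0.01, adjusted p = 0.894).

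Among other channels and carriers, 4 of 15 tested genes rose and 2 fell (40.0% called, beside 56.9% of all tested genes). The subunits of the mitochondrial pyruvate carrier went in opposite directions, MPC1 up by 1.5 (limma, adjusted p = 6.8e-06; 0.84 with the constant subtracted, still called) and MPC2 down by 0.28 (limma, adjusted p = 0.0085). VDAC1, a porin of the outer membrane, rose by 1.24 (0.58 with the constant subtracted, still called), SFXN3 rose by 0.36, and the serine carrier SFXN1 fell by 0.47. Of 7 tested shuttle enzymes, 71.4% were called, beside 56.9% of all tested genes. The mitochondrial forms GOT2 and MDH2 rose, by 1.01 (0.35 with the constant subtracted, limma, adjusted p = 0.0277) and 0.23. The cytosolic forms GOT1 and MDH1 fell, by 0.79 and 0.37. The glycerol phosphate shuttle enzyme GPD2 fell by 0.55 (limma, adjusted p = 0.00042). Of 7 tested regulators of mitochondrial genes, all had a negative difference, between -0.36 and -0.05. PPRC1 alone was called (-0.32, limma, adjusted p = 0.0402), which is 14.3% beside 56.9% of all tested genes. PPARGC1A was at most 0.14.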

How the data were processed

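RNA-sequencing values of 3 parental and 3 adapted samples of H1975 cells were analyzed. A single table of log2 values was deposited by the authors, with 27216 genes (7260 under NewGene_ names). Its 6 columns carry the group and replicate number of each sample, and 0 per-sample columns were left unused. From the values the unit was taken as log2(FPKM + 1), since the linear values sum to 375342 to 387753 per sample. The submitters' processing notes name hg38, Bowtie2 2.1.0, STAR and edgeR with no role or order, and the study's methods name DESeq2, which needs counts. The depth is unknown, so no counting error is given. Whether counting used strand is not given in the sources used here.

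Genes with a mean of at least 1 were tested in R 4.3.3 with limma 3.58.1 (lmFit, eBayes with an intensity trend), two-sided and unpaired, with Benjamini-Hochberg adjustment over all 12656 genes and a threshold of 0.05; an exact permutation test of 3 against 3 samples cannot go below 0.1 and was not used. The fit was tested on simulated data. Fold changes on this scale understate the change of low genes. A gene carries a constant where the 3 values of 1 group, turned back to the linear scale, are off a grid of 6 decimals by more than 0.01 of the last decimal and 1 constant between 0.01 and 0.99 in steps of 0.01 returns all of them. Gene positions and shared stretches are from GENCODE v29 (GRCh38), and promoters from RefSeq (GRCh38.p14). Members, role groups and companion lists were chosen with earlier results of these data known, so their counts are descriptions. Named in full are the ADP/ATP carriers, the members with a constant, up to 8 rises and 8 falls past the threshold without overlap, and the highest tested member of each role group; from each companion list up to 3 rises and 3 falls are named. The values of 1 tested member are not reported here, though it is included in the counts.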

Additional observations from a re-analysis of the deposited data

How the results depend on the processing

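Of the 23 calls, 15 (10 higher, 5 lower) held under all 17 alternatives run with the same threshold: a pseudocount of 0.1, no filter, a mean of at least 3, quantile normalization, an equal sum without mitochondrially encoded genes, median centring, eBayes without a trend or robust, the replicate block, leaving out each sample, and leaving out or subtracting the constants, where a call was counted only where the gene was tested. No called carrier reversed. A change of at least 1 on the log2 scale was met by 3 carriers (2 higher, 1 lower), 1328 genes and 4 companions. With a mean of at least 3, 4532 of 7693 genes were called, fewer genes being tested. Subtracting the constant took the difference in the SLC25A5 share to 6.66 points from 14.5. Leaving out 1 sample gave 18 to 24 carriers (12 to 16 higher, 6 to 9 lower), 5763 to 8370 genes, 14 to 27 companions and share differences of 13.2 to 15.8 points; the highest counts of carriers, genes and companions came without adapted replicate 1. The median of the carriers was 0.07 to 0.14 under the alternatives. The replicate numbers did not pair the samples (correlations of deviations -0.051, -0.031 and -0.020), and with the replicate block 22 carriers, 6761 genes and 17 companions were called. DESeq2 and edgeR were not run, since no counts were analyzed, and without depth the error of low values cannot be separated from the spread between samples.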
